A study of Mus musculus with 5 samples.

Results

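Bmp and activin ligands and receptors are 10 genes of the Tgf-beta superfamily: the ligand genes Bmp2, Bmp4, Bmp7, Inhba and Inhbb and the receptor genes Bmpr1a, Bmpr2, Acvr1, Acvr2a and Tgfbr1. They were taken by gene symbol from a count table of 23420 genes, and each of the 10 symbols matched 1 row. The table came from RNA-seq of the luminal layer of the mouse uterus, cut out of frozen sections by laser microdissection and amplified with a low-input SMART-seq kit. All females were wildtype C57BL/6N, with the day of plug detection as day 1 of pregnancy. Of the 5 libraries, 1 came from the morning of day 3, 1 from the morning of day 4 and 1 from the evening of day 4. The other libraries came from the morning of day 5, 1 from luminal layer away from the attached embryo (the away library) and 1 from the layer that surrounded it (the around library). These 2 are also labelled Day5am_Mpole and Day5am_Ampole, read here as the mesometrial and antimesometrial poles of the uterus, so a difference between them is one of pole as well as of distance from the embryo. Day 5 females had also received the dye Chicago blue intravenously, which marks implantation sites. The age of the females and the number of animals behind each library are not given in the sources used here.

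Bmp and activin ligands are secreted as dimers that assemble type I and type II receptor kinases on the cell surface, and the type I kinase then phosphorylates Smad proteins that act in the nucleus. Bmp receptors mainly use Smad1, Smad5 and Smad9, whereas activin and Tgf-beta receptors mainly use Smad2 and Smad3, and both branches share Smad4. In the pregnant mouse uterus this family is known for roles in embryo attachment, in decidualization of the stroma, for which Bmp2 is required, and in formation of the placenta.

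Total counts ran from 15334674 on the morning of day 3 to 19529491 on the morning of day 4, with 16560409 in the evening of day 4, 16702914 in the away library and 19136032 in the around library. Levels are given as counts per 1000000 counts of a library (CPM) after TMM scaling, and a change is a difference of log2 CPM, computed after adding a prior of 2 counts. A gene counted as called when its change was beyond 1 on the log2 scale, that is over 2-fold, among the 12915 genes whose mean level was 1 CPM or more. Each group had 1 library, so no replicate check exists for any difference, no test was run, and each comparison is of libraries and not of conditions. The 95% intervals are exact Clopper-Pearson intervals of a count ratio or exact Poisson intervals of a level, and they cover counting error only. The comparisons also share libraries: day 4 evening is the reference of both day 5 libraries. The genes and gene lists were chosen with earlier results of these data known, so shares set beside those of all genes are descriptive only.

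The label of the tissue was checked against marker genes. All 10 markers of luminal epithelium were counted in all 5 libraries, with a summed level of 11440 CPM on the morning of day 3, 15690 and 11520 CPM on the morning and evening of day 4, 5495 CPM in the away library and 8570 CPM in the around library. Calb1, encoding a calcium-binding protein, was the most abundant of them through day 4, with 94960, 143278 and 73114 counts, and stood at 1357 in the away and 306 in the around library, where Cldn3 and Epcam led instead. Gland markers, 7 of 8 of which were in the table, summed to 245.4, 16.2, 7.96, 4.50 and 31.1 CPM. On day 3 Aldh1a1 held 4184 of their 4262 counts. Lif led in the around library. Lif is also known to be induced in stroma near the embryo on day 5, and so does not mark glands alone there. All 6 gland markers counted in the around library had more counts there than in the away library. Among them were Foxa2 at 21 against 2, Prss29 at 74 against 35 and Spink3 at 81 against 17. Foxa2 and Lif were at 0 counts on the evening of day 4.

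Other cells were represented too, and the around library differed from the rest in them. All 9 embryo and trophoblast markers were counted in the around library, at a summed 223.7 CPM led by the pluripotency-associated gene Dppa5a with 1916 counts. The same list summed to 4.38, 12.4, 8.47 and 1.98 CPM in the other libraries in order of time, where Cdx2, Pou5f1, Nanog, Hand1 and Zfp42, which mark trophoblast or pluripotent cells, were at 0 counts. Stroma and decidua markers, with all 12 counted in each library, summed to 635.1, 602.5, 683.5, 614.3 and 778.5 CPM. Within that list Des and Hand2 reached 6090 and 2282 counts in the around library, against 369 and 389 in the away library, and Des made up 353.6 of the 778.5 CPM. Col3a1, the most abundant one elsewhere, stood at 729 against 2640, Dcn at 242 against 1709, Lum at 115 against 997 and Col1a2 at 263 against 843. So 4 of the 12 were called lower around than away and 3 higher, beside 15% and 13.4% of all genes, with a median of -0.315. Endothelial markers, all 5 counted in each library, summed to 12.0, 25.1, 29.96, 44.7 and 95.5 CPM, led in the around library by Cdh5 with 1229 counts against 133 in the away library, whereas Kdr and Emcn were called lower around than away, at 18 and 27 counts against 42 and 79. The 5 smooth muscle markers summed to 4.61, 2.62, 10.3, 12.1 and 41.0 CPM, led in the around library by Acta2, and Cnn1 and Actg2 were at 0 on the morning of day 4. All 5 had more counts around than away, with Acta2 at 272 against 113, Tagln at 192 against 80 and Cnn1 at 118 against 4. The 4 immune markers in the table summed to 221.1, 316.8, 282.5, 213.3 and 84.0 CPM, led in each library by Lyz2, which had 3495 counts in the away and 708 in the around library, while Cd68 went the other way, from 220 to 670. What part RNA of embryo, gland, stroma, smooth muscle, vessels or immune cells had in the changes of Bmp and activin genes was not tested. In bulk tissue fewer cells of a type and less RNA per cell cannot be told apart.

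**Figure D1:**
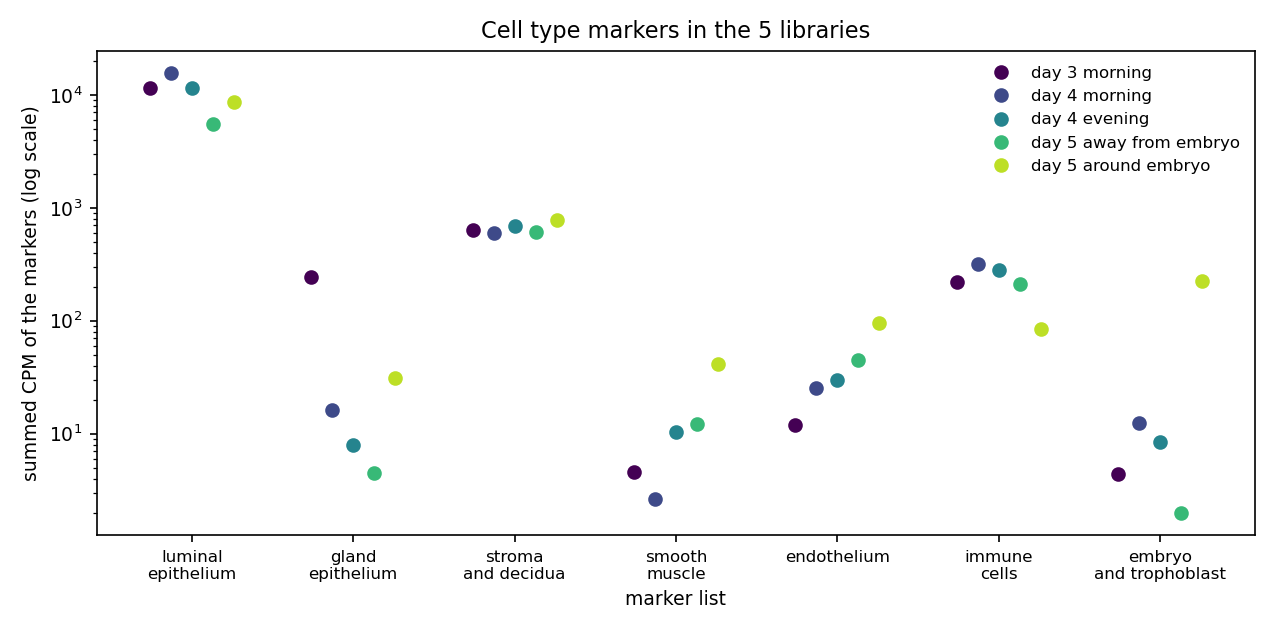
Summed CPM of the marker genes of 7 cell types on a log axis, 1 point per library. The embryo and trophoblast list stands at 223.7 CPM in the around library and at 12.4 CPM or less in the other 4 libraries.

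Few Bmp and activin genes were called in either step before day 5, and most were called in the layer around the embryo. From the morning of day 3 to that of day 4, 1 of the 10 genes was called higher (Bmp4) and 2 lower (Inhba and Tgfbr1), beside 7.47% and 11.5% of all 12915 genes. From the morning to the evening of day 4, 1 gene was called higher (Tgfbr1) and 0 lower, beside 7.21% and 6.95%. These shares lie near those of all genes or rest on 1 or 2 genes. Over both steps together, looked at after the values were seen, Bmp4 rose by 2.39, Acvr1 by 1.76 and Bmp2 by 1.35 on the log2 scale and Inhba fell by 2.10, so 3 of the 10 were past 2-fold higher and 1 lower, beside 9.38% and 12.5% of all genes.

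Between the evening of day 4 and the away library, 2 of the 10 genes were called higher (Inhbb and Tgfbr1) and 1 lower (Bmp7), beside 12.9% and 12.7% of all genes. In the around library, 7 of the 10 were called higher than on the evening of day 4, namely the 5 ligands, Bmpr2 and Tgfbr1, and 0 were called lower, beside 19.1% and 20.7% of all genes. Set directly against the away library, the around library had 6 called higher (the 5 ligands and Bmpr2) and 0 lower, beside 13.4% and 15%. The median change of the 10 genes was 1.80 from the evening of day 4 to the around library and 0.16 to the away library, against -0.02 and 0.01 over all genes. All 10 genes passed the minimum of 1 CPM, but Bmp4 and Inhba passed only through the around library and had to differ there, and without that library 8 of 10 passed. The library in which the ligands were high is also the one in which the embryo markers reached 223.7 CPM, and the embryo's own share of the ligand counts was not tested.

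**Figure D2:**
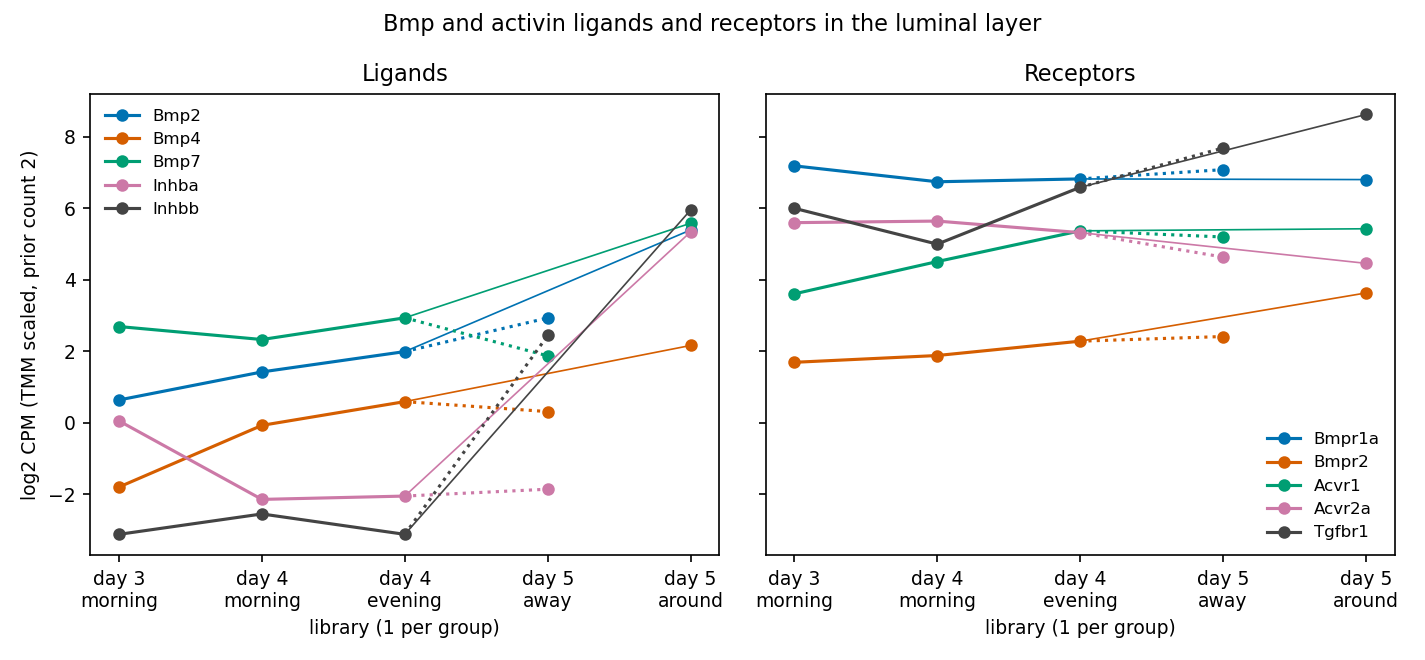
Levels of the 5 ligand genes (left) and 5 receptor genes (right) as log2 CPM in the 5 libraries, 1 library per group, with dotted lines from day 4 evening to the away library and thin solid lines to the around library. The 5 ligands meet their highest level in the around library, while Bmpr1a spans only 0.45 over the 5 libraries.

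Inhbb encodes the beta B subunit of activins and inhibins. It had 0, 1 and 0 counts on the morning of day 3 and the morning and evening of day 4, 99 counts in the away library and 1063 in the around library. The gene was thus at or under the floor of 3 counts until day 5, present away from the embryo, and higher around it. Inhbb was 28.0-fold higher in the away and 325-fold higher in the around library than the floor of 3 counts on the evening of day 4. The exact counting intervals of the ratios to that evening begin lower, at 22.3 and 264. The around library was 11.6-fold above the away library, with a counting interval of 9.46 to 14.4, a log2 change of 3.51.

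Inhba encodes the beta A subunit, whose dimer is activin A. Its counts were 16 on the morning of day 3, 2 and 2 on the morning and evening of day 4, 3 in the away library and 694 in the around library. Only the around library was high, and unlike Inhbb, Inhba was at the floor away from the embryo. The ratio of the around to the away library was 251, with a counting interval of 85.4 to 1220, and that to the evening of day 4 was 319 (87.9 to 2640). The low counts of day 4 leave these ratios wide, and the fall from day 3 to the morning of day 4, called at -2.20 on the log2 scale, has an interval of -6.21 to -0.96.

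Bmp2, the ligand that stromal decidualization requires, had 25 counts on the morning of day 3, 46 and 61 on the morning and evening of day 4, 140 in the away library and 720 in the around library. Each library was above those of earlier times, and the around library was above the away library. The steps up to the away library were 0.78, 0.57 and 0.94 on the log2 scale, none of them past 1, and the last lies just inside that line, past it under total counts (1.16) and total counts without Rn45s and Lars2 (1.07). The around library was 10.8-fold above the evening of day 4 (8.34 to 14.3) and 5.57-fold above the away library (4.64 to 6.72).

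Bmp7, a ligand that binds Acvr1 among other type I receptors, had 110, 88 and 119 counts up to the evening of day 4, 66 in the away library and 821 in the around library. It was the only 1 of the 10 genes called in opposite directions in the day 5 libraries relative to the evening of day 4. Away from the embryo it fell by 1.06 on the log2 scale, with an interval of -1.54 to -0.64 that reaches inside the threshold. Around the embryo it stood 6.34-fold higher (5.22 to 7.75), and the ratio of the around to the away library was 13.5 (10.5 to 17.6).

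Bmp4, a close relative of Bmp2, was the least counted of the ligands around the embryo. It had 3 counts on the morning of day 3, 15 and 22 on the morning and evening of day 4, 21 in the away library and 75 in the around library. Its highest level was also in the around library, 3.13-fold above the evening of day 4 (1.93 to 5.29) and 3.87-fold above the away library (2.36 to 6.61). The call from day 3 to day 4 rests on 3 counts, with a ratio of 4.84 and an interval of 1.37 to 26.1.

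Tgfbr1, a type I receptor for Tgf-beta ligands that activates Smad2 and Smad3, was the most counted of the receptors on day 5. Its counts were 1106 on the morning of day 3, 570 and 1514 on the morning and evening of day 4, 3828 in the away library and 6763 in the around library. The gene was lowest on the morning of day 4 and high in both day 5 libraries. It fell by 1.00 on the log2 scale from day 3 to the morning of day 4, just past the threshold, and then stood 1.59 higher by the evening, with an interval of 1.45 to 1.73. From the evening of day 4 the change was 1.10 in the away library, also close to the threshold, and 2.04 in the around library (4.10-fold, 3.88 to 4.34). Around against away, the change of 0.94 was just short of it.

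Bmpr2, the type II receptor of Bmp ligands, had 54, 64 and 75 counts up to the evening of day 4, 97 in the away library and 211 in the around library. Only the around library stood clear of the others, 2.58-fold above the evening of day 4 (1.98 to 3.41) and 2.36-fold above the away library (1.84 to 3.03). Acvr1, a type I receptor that signals through Smad1 and Smad5, had 209, 406 and 650 counts on the morning of day 3 and the morning and evening of day 4, 680 in the away library and 737 in the around library. Its steps of 0.90 and 0.86 before day 5 did not pass 1 singly, and from the evening of day 4 its changes were -0.17 and 0.06 in the away and around libraries.

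Bmpr1a, a type I receptor for Bmp2 and Bmp4, had 2520, 1914 and 1782 counts up to the evening of day 4, 2514 in the away library and 1914 in the around library. None of its 5 changes was larger than 0.45 in size, and around against evening of day 4 the ratio was 0.987 with an interval of 0.925 to 1.05. Acvr2a, a type II receptor that binds activins and some Bmps, had 837, 892 and 628 counts before day 5, 460 in the away library and 376 in the around library. Its changes from the evening of day 4 were -0.68 in the away and -0.86 in the around library, short of the threshold. The receptors therefore did not move as a block. Around the embryo, 2 of 5 were called higher and 0 lower than on the evening of day 4, beside 19.1% and 20.7% of all genes. The median of the 5 was 0.06, against 3.40 for the 5 ligands.

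Levels of different genes were compared per length, as CPM per 1000 bases of the deposited gene length (RPKM). On the morning of day 3, Bmpr1a led with 26.5 RPKM, followed by Tgfbr1 at 11.2, Acvr2a at 8.48, Acvr1 at 3.65 and Bmp7 at 3.22, the last pair with overlapping counting intervals. Every other ligand was under 1 RPKM. On the morning of day 4 it was Bmpr1a at 19.4 RPKM, Acvr2a at 8.74, Acvr1 at 6.86, Tgfbr1 at 5.60 and Bmp7 at 2.49, ahead of Bmp2 and Bmpr2, both at 1.02. On the evening of day 4 the order was Bmpr1a at 20.6 RPKM, Tgfbr1 at 16.9, Acvr1 at 12.5, Acvr2a at 6.99 and Bmp7 at 3.82, with no overlap between neighbours. The receptors thus stood above the ligands before day 5, with Bmpr2 as the exception, which lay below Bmp7 and on the evening of day 4 was level within counting error with Bmp2, at 1.35 and 1.53 RPKM.

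The order changed on day 5. In the away library Tgfbr1 led with 36.2 RPKM, ahead of Bmpr1a at 24.6, Acvr1 at 11.1 and Acvr2a at 4.34, and the ligands ran from Bmp2 at 2.98 RPKM to Inhba at 0.105. Around the embryo Tgfbr1 stood at 69.3 RPKM, Inhba at 26.4 and Bmp7 at 24.2, the latter 2 with overlapping intervals. Bmpr1a followed at 20.3 RPKM, Bmp2 at 16.6, Inhbb at 14.5 and Acvr1 at 13.0, the intervals of Inhbb and Acvr1 again overlapping. Acvr2a at 3.84 and Bmpr2 at 3.49 RPKM overlapped too, and Bmp4 was last at 2.18 RPKM. So 4 of the 5 ligands stood below Tgfbr1 and above Acvr2a and Bmpr2, each of them above 67.1% or more of the kept genes by RPKM, whereas Bmp4 was above 27.5%. Of these ligands, Bmp7 had been above Bmpr2 before day 5 too. Per length, Inhba exceeded Inhbb by 1.82-fold around the embryo (1.65 to 2.0). In the away library Inhbb exceeded Inhba, which had 3 counts, by 11.9-fold, a ratio of Inhba to Inhbb of 0.0843 (0.0171 to 0.254). Deposited lengths were shorter than the GENCODE exons for some genes, with 3507 against 17983 bases for Bmpr2, 1529 against 6390 for Inhba and 1967 against 4019 for Bmp7, and reads in the exons that the deposited models leave out are not in their levels.

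Outside the 10 Bmp and activin genes, 53 of 85 listed pathway genes passed the minimum level. From day 3 to the morning of day 4, 3 of them (5.66%) were called higher and 13 (24.5%) lower, with a median change of -0.13, beside 7.47% and 11.5% of all genes, and from the morning to the evening of day 4, 12 (22.6%) were called higher and 6 (11.3%) lower, with a median of 0.03, beside 7.21% and 6.95%. From the evening of day 4, 20 (37.7%) were called higher and 6 (11.3%) lower in the away library, beside 12.9% and 12.7% of all genes, and 26 (49.1%) higher and 11 (20.8%) lower in the around library, beside 19.1% and 20.7%, with medians of 0.60 and 0.94. Around against away, 15 (28.3%) were called higher and 9 (17%) lower, with a median of 0.19, beside 13.4% and 15%. In the day 5 comparisons the share of higher calls was thus above that of all genes, and the share of lower calls was close to it. A share above that of all genes was not particular to day 5. It held for lower calls in both earlier steps and for higher calls from the morning to the evening of day 4. The genes follow by role, and the calls of each list from the evening of day 4 stand beside the same shares of all genes, 12.9% higher and 12.7% lower in the away and 19.1% higher and 20.7% lower in the around library.

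Among 27 other ligand genes of the superfamily, 8 passed the minimum level. Relative to the evening of day 4, 3 of the 8 were called higher and 4 lower in the around library, with a median of -0.83, and 3 were higher and 2 lower in the away library, with a median of 0.82. Tgfb1, the main Tgf-beta ligand, followed the pattern of the Bmp and activin ligands, with 44, 34, 20, 44 and 442 counts in the 5 libraries in order. Bmp5 ran the other way, with 353, 150, 94, 38 and 2 counts, and was called lower from day 3 to the morning of day 4 and in both day 5 libraries. Gdf10 had 276, 258, 235 and 571 counts up to the away library and 18 in the around library, so it was called higher away from the embryo and lower around it.

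The other called ligands were low. Bmp3 had 74, 24, 2, 30 and 2 counts, Tgfb3 had 64, 32, 37, 77 and 12, and Tgfb2 had 17, 35, 13, 39 and 34. Lefty1, an inhibitor of Nodal signalling, had 17, 26, 94, 11 and 25 counts, highest on the evening of day 4. Gdf15, a distant member, had 147 and 11 counts on the mornings of day 3 and day 4, then 0 and 0, and 26 in the around library. Of the 19 ligands under the minimum, some are named after their values were seen. Nodal had 0 counts in all 5 libraries. Lefty2 had 47 and Bmp8b 46 in the around library against 1 or fewer and 3 or fewer elsewhere. Bmp6 was highest on day 3, with 46, 3, 0, 6 and 8 counts in order. Inha, whose product pairs with the beta subunits to form inhibins, had 6, 8, 0, 7 and 16.

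Of 12 other receptors and co-receptors, 10 passed the minimum. From the evening of day 4, 3 were called higher and 2 lower in the around library and 2 higher and 2 lower in the away library, with medians of 0.12 and 0.25. Bmpr1b, a type I Bmp receptor related to Bmpr1a, had 269, 301 and 130 counts before day 5 and 0 in both day 5 libraries. Its level on the evening of day 4 was 51.1-fold above the floor of 3 counts in the away library. The exact counting interval of the ratio of away to evening reaches up to 0.0244. That floor is 0.161 CPM in the away and 0.174 CPM in the around library. Bmpr1a exceeded it per length by 9.12-fold on the morning of day 3 (8.04 to 10.4), and on day 5 Bmpr1a was the Bmp type I receptor still counted of this pair.

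Tgfbr3, a co-receptor also called betaglycan that presents ligands and binds inhibin, had 53, 102, 296 and 471 counts up to the away library and 48 in the around library. Tdgf1, the co-receptor Cripto, had 10 counts on the evening of day 4, 233 in the around library and 0 in the other libraries. Eng, an endothelial co-receptor, had 37, 69, 38, 153 and 106 counts and Rgma, a Bmp co-receptor, 12, 19, 11, 37 and 59, both called higher in each day 5 library than on the evening of day 4. The type II partners Acvr2b and Tgfbr2 and the type I receptors Acvr1b and Acvrl1 were not called in any comparison, and Tgfbr2 had 1898 counts on the evening of day 4 against 1233 and 1504 on day 5.

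Secreted antagonists bind ligands outside the cell, and Bambi is a decoy receptor without a kinase. Of 16 such genes, 7 passed the minimum, and from the evening of day 4 the around library had 2 called higher and 3 lower and the away library 3 higher and 1 lower, with medians of -0.81 and 0.41. Fst encodes follistatin, which traps activins and, less tightly, some Bmps. It had 23, 20, 64, 185 and 5226 counts in order of time, and like Inhba and Inhbb it was called higher around the embryo than away from it. Per length Fst stood at 129.8 RPKM in the around library, 4.93-fold above Inhba (4.55 to 5.34) and 8.95-fold above Inhbb (8.38 to 9.57).

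Nog, encoding the Bmp antagonist noggin, was called lower in the around library, where Bmp2, Bmp4 and Bmp7 were called higher. Its counts were 93, 152, 115 and 181 up to the away library and 8 in the around library. Per length Nog exceeded Bmp2 by 2.47-fold on the evening of day 4 (1.79 to 3.42) and by 1.69-fold in the away library (1.35 to 2.12), and around the embryo its ratio to Bmp2 was 0.0145 (0.00625 to 0.0288).

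Sostdc1, an antagonist of Bmp and Wnt ligands, had 1, 12, 25 and 407 counts up to the away library and 0 around the embryo. Its level in the away library was 125-fold above the floor of 3 counts in the around library, and the interval of the ratio of around to away reaches up to 0.00986. Nbl1, a secreted antagonist of the Dan family, had 1109, 525, 640, 4219 and 9302 counts and was high in both day 5 libraries. Bambi had 9777 and 17287 counts on the mornings of day 3 and day 4, 8782 in the evening, and 3621 and 3024 in the away and around libraries. Its change from the morning to the evening of day 4, -0.79, was not called, and the day 5 changes were -1.52 and -1.66. The antagonists thus differed by gene, with Fst and Nbl1 high around the embryo and Nog at 8 and Sostdc1 at 0 counts there.

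All 13 Smads and Smad regulators passed the minimum. None was called lower in either day 5 library, while 7 were called higher in the around library and 4 in the away library than on the evening of day 4, with medians of 1.62 and 0.92. Of the Smads that receptors phosphorylate, Smad5 of the Bmp branch had 954, 826, 1484, 4727 and 4965 counts, and Smad1 1580, 2727, 3072, 4209 and 5726, the latter with no step past 1. Smad9 was low, with 65, 2, 7, 53 and 28 counts. Smad2, Smad3 and the shared Smad4 were not called in any comparison, and their changes from the evening of day 4 to the around library were 0.07, 0.22 and 0.40.

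Both inhibitory Smads were called higher around the embryo than on the evening of day 4. Against the away library Smad7 was called higher and Smad6, at 0.86, was not, and Smad6 was already called higher away from the embryo. Smad6, which blocks mainly the Bmp branch, had 630, 594, 290, 1286 and 2156 counts, and Smad7, which blocks both branches, 681, 698, 337, 793 and 2117. Smurf1, a ubiquitin ligase for Smads and receptors, had 329, 355, 334, 777 and 1688 counts and Skil, a co-repressor of Smad2 and Smad3, 746, 574, 483, 1081 and 2739. Fkbp1a encodes a small protein that binds type I receptors and keeps them inactive without ligand, among other roles. It had 8438, 10232 and 11178 counts before day 5 and 44667 and 53140 in the away and around libraries, whereas of the type I receptors Acvr1 and Bmpr1a were not called, Tgfbr1 was called higher and Bmpr1b lower in both.

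Proteases that cut ligand precursors or antagonists had calls both before and on day 5. Of 6 listed, 5 passed the minimum. From day 3 to the morning of day 4, 1 was called higher (Pcsk5) and 2 lower (Pcsk6 and Bmp1), beside 7.47% and 11.5% of all genes. From then to the evening, 2 were called higher (Pcsk6 and Tll1) and 0 lower, beside 7.21% and 6.95%. Relative to that evening, 5 were called higher around the embryo and 3 away from it (not Furin or Bmp1), with medians of 2.56 and 1.37. Pcsk6, a proprotein convertase that matures ligands of the family, had 111, 3 and 27 counts before day 5 and 2087 and 2043 in the away and around libraries. Tll1, a protease of the Bmp1 family that can cut chordin, had 13, 7 and 86 counts before day 5 and 2848 and 2651 in those libraries. These 2 genes were as high away from the embryo as around it, with changes of 0.08 and 0.01 between the libraries. Furin, a further convertase, had 874, 703, 657, 1065 and 1980 counts, Pcsk5 had 45, 221, 242, 742 and 1561, and Bmp1, a chordin-cutting protease despite its name, had 332, 138, 164, 283 and 808. These 3 were called higher around the embryo than away from it, Furin and Pcsk5 not under every scaling (0.70 and 0.88 at their lowest).

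**Figure D3:**
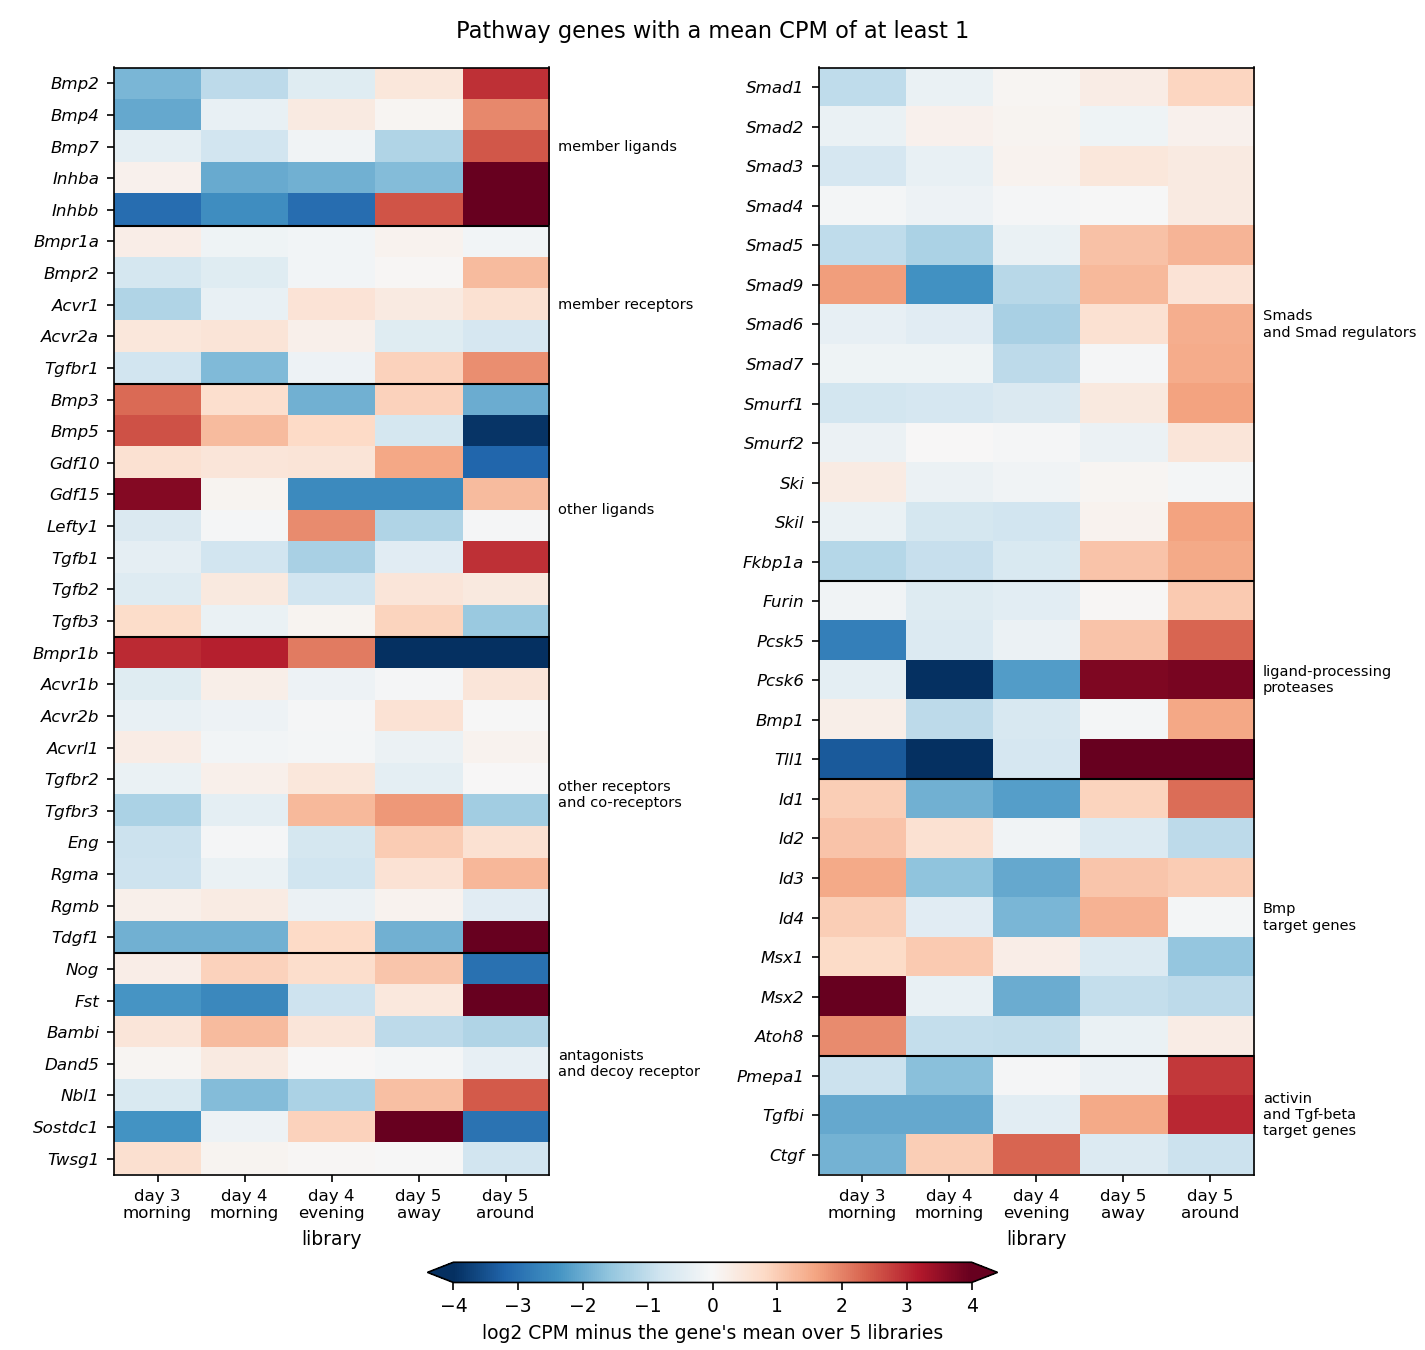
Log2 CPM of the 63 pathway genes whose mean level reached 1 CPM, each minus its own mean over the 5 libraries, with colours capped at 4 in size and genes of more than 1 list drawn once. The ligand genes Bmp2, Bmp4, Bmp7, Inhba and Inhbb, and Fst, Tgfb1 and Pmepa1, are highest in the around library, where Nog, Bmp5 and Gdf10 are lowest.

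Genes that Bmp signals are known to induce had a median that fell before day 5 and rose on it. All 10 passed the minimum, 5 were called lower from day 3 to the morning of day 4 at a median of -0.99, beside 11.5% of all genes, and from the evening of day 4 the around library had 6 called higher and 2 lower and the away library 5 higher and 1 lower. Id1, encoding an inhibitor of differentiation, had 4349, 605, 437, 4419 and 10306 counts, and Id3 had 5958, 707, 460, 4875 and 4205. Both were high on day 3, low on day 4 and high again in both day 5 libraries. Id4, with 1458, 558, 186, 2059 and 688 counts, was higher away from the embryo than around it.

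Msx2, encoding a homeobox factor of the epithelium, had 1259, 52, 13, 34 and 29 counts, and Atoh8 had 465, 66, 57, 111 and 151. Both were called lower from day 3 to the morning of day 4, and from that evening Msx2 was called higher in the away and Atoh8 in the around library. Msx1 had 8340, 10540 and 5452 counts before day 5 and 3657 and 1672 in the away and around libraries, called lower in the latter, and Id2 had 26711 counts on day 3 and 5789 around the embryo with no single step past 1. Smad6, Smad7 and Bambi, which also stand on this list, were described above. The median change of the 10 genes from the evening of day 4 was 1.51 in the around and 1.02 in the away library. Around against away it was -0.10, with 2 called higher and 2 lower, beside 13.4% and 15% of all genes. The Bmp ligand genes Bmp2, Bmp4 and Bmp7 changed by 2.46, 1.85 and 3.71 between those libraries.

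Of 7 genes that activin or Tgf-beta induces, 6 passed the minimum. From day 3 to the morning of day 4, 1 was called higher (Ctgf) and 0 lower, beside 7.47% and 11.5% of all genes. From then to the evening, 4 were called higher (Pmepa1, Tgfbi, Ctgf and Fst) and 0 lower, beside 7.21% and 6.95%, with a median of 1.48. From the evening of day 4, 5 were called higher in the around library and 1 lower, with a median of 2.70, and the away library had 2 higher and 1 lower, with a median of 0.96. Around against away, 5 were called higher and 0 lower, with a median of 1.515, beside 13.4% and 15% of all genes. Pmepa1, a negative regulator of the pathway, had 573, 336, 930, 957 and 7451 counts, and Tgfbi, an extracellular matrix protein, 581, 597, 1622, 7349 and 19219. Ctgf, a matricellular protein, was the gene called lower in both, with 1734, 13153 and 29342 counts before day 5 and 4716 and 3534 in the away and around libraries. Smad7, Skil and Fst, which also stand on this list, were described above.

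Over the 9 pathway lists, 46 genes had 141 calls in the 5 comparisons, and all 141 kept their direction when libraries were scaled by DESeq2 size factors, by total counts or by total counts without Rn45s and Lars2, or with a prior count of 0.5. All but 11 of these calls stayed past the threshold under each of those settings. Among the 10 Bmp and activin genes the exceptions were Tgfbr1 from day 3 to the morning of day 4 (-0.98 at its nearest to 0), Bmp7 in the away library (-0.84) and Bmpr2 around against away (0.91). The others were Tgfb3 from day 3 to the morning of day 4, Bmpr1b from then to the evening, and Lefty1, Nbl1, Smurf1, Furin, Pcsk5 and Msx1 around against away. Scaling by total counts put the median of all genes at -0.29 from day 3 to the morning of day 4, at 0.23 and -0.11 from the evening of day 4 to the away and around libraries, and at -0.36 from the away to the around library, and without Rn45s and Lars2 these medians were -0.14, 0.14, -0.18 and -0.33. The changes given for the 10 genes are under TMM scaling, where these medians ran from -0.05 to 0.01. The share of all kept genes with a call in any of the 5 comparisons is not given here, so the 46 called pathway genes have no background to stand beside.

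Genes with the most similar course over the 5 libraries were sought for each of the 6 genes whose log2 CPM spanned at least 2, among all genes averaging 5 CPM or more, by the root mean square difference of centred log2 CPM. For Inhba the nearest was Spp1, encoding osteopontin, at 0.186, with 2427, 415, 440, 730 and 73918 counts, followed by Syt7 and Aqp3. For Bmp2 they were Sorcs2 at 0.202, Inf2 and Egflam, for Bmp7 Aldh1l2 at 0.179, Cxcr7 and Mylk, and for Bmp4 Cald1 at 0.245, Pcdh1 and Plcxd3. Tgfbr1 lay closest to Dhrs13 at 0.140, 2200002D01Rik and Pvr. Inhbb had no near neighbour: C330005M16Rik came first at 0.635, before Fads3 and Tead4. None of these 6 had another of the 10 genes among its 3 nearest, and Bmp4, which averaged under 5 CPM, was not a candidate.

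The 10 genes lie on 5 chromosomes of the mouse build GRCm38, all annotated as protein coding. The deposited exons of Inhba span chr13:16014475-16027211 on the plus strand and those of Inhbb chr1:119415465-119422248 on the minus strand. Bmp2 lies at chr2:133553199-133562885 (plus), Bmp7 at chr2:172869687-172940293 (minus) and Bmp4 at chr14:46383520-46390599 (minus). Among the receptors, Tgfbr1 spans chr4:47353305-47414924 (plus), Bmpr2 chr1:59764637-59870859 (plus), Bmpr1a chr14:34411068-34502546 (minus), Acvr1 chr2:58446438-58566828 (minus) and Acvr2a chr2:48814109-48903264 (plus). The strand setting of the counting is not given in the sources used here, so reads of genes on opposite strands that share exon bases cannot be told apart. Acvr2a shares 441 exon bases with Orc4, which had 1333 counts on the evening of day 4 and 803 in the around library, and Bmp4 shares 89 with Gm15217, which had 6 counts in the around library and 0 elsewhere. Bmpr1a shares 152 with the antisense gene Gm17110, which is not a row of the count table.

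Promoter sequences from RefSeq (GRCm38.p6) matched 8 of the 10 genes, with no entry for Bmp2 and Bmp7. The 250 bases upstream of the start were searched on both strands for TTCNNNGAA, a Stat site, GTCTAGAC, a palindromic Smad site, GGCGCC, a GC-rich Smad site, TGANTCA, an AP-1 site, and TATAAA, the TATA box, none of which is part of another. Of 32851 mouse promoters, 7.02%, 0.167%, 9.59%, 6.75% and 12.4% held them, in that order. GGCGCC occurred once each in Bmpr1a, Bmpr2 and the first of 2 Tgfbr1 promoters, and TATAAA once in Inhba. Those windows with GGCGCC had 78.8%, 64.0% and 74.8% G and C, so the share over all promoters is not of like make-up. The windows of Acvr1 and Acvr2a, with 85.6% and 82.0%, held no GGCGCC. The activin subunit genes, which were both highest around the embryo, are shown because their promoters differ in make-up. That of Inhba had 43.2% G and C, below the median of 52.4% over all promoters, and that of Inhbb 68.0%. Capitals mark TATAAA in the Inhba sequence (chr13:16011601-16011850, plus strand, 2624 bases before the first deposited exon) and no searched motif was in the Inhbb sequence (chr1:119422249-119422498, minus strand, next to the first exon).
Inhba: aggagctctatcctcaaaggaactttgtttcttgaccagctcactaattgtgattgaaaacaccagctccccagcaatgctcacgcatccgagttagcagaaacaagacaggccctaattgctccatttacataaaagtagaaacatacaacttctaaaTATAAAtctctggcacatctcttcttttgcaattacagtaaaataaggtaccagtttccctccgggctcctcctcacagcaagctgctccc
Inhbb: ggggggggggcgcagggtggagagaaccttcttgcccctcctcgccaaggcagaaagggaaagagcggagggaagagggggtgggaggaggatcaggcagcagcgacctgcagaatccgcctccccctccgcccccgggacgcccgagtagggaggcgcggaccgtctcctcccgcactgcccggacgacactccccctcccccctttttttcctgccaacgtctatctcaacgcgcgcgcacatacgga
These matches are of letters only and say nothing on binding.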

How the data were processed

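RNA-seq of 5 laser-microdissected libraries of wildtype uterine luminal layer was read from 1 table. Per the submitters' processing notes and methods, the authors aligned paired-end reads to GRCm38/mm10 with HISAT2, counted them with featureCounts of Subread 2.0.0 and deposited raw counts per gene, without molecular identifiers or normalization, together with gene lengths. The strand setting and gene annotation are not given in the sources used here.

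The deposited counts were scaled by TMM in edgeR 4.0.16 (R 4.3.3), with DESeq2 1.42.0 size factors as an alternative, and handled in Python 3.11.15 with pandas 2.3.3, numpy 2.4.6, scipy 1.17.1 and matplotlib 3.10.9. The calls and intervals were run on simulated counts that held Poisson error only. That cannot show how they hold under variation between libraries or from amplification. The Bmp and activin genes, the pathway and marker lists and the rules were chosen with earlier results of these data known. Named were the 10 genes, any called gene of a pathway list, and the 3 nearest profiles of genes spanning 2 or more on the log2 scale. A further gene of the planned lists is not reported here. Alternatives were other scalings, prior counts, filters and folds, and a counting interval past 2-fold. Exon overlaps came from GENCODE vM21. The 27 gene names in date form were kept as deposited.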

Additional observations from a re-analysis of the deposited data

Results flagged for a closer look

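Of the 63 pathway genes that passed the minimum level, 4 (6.35%) were past 2-fold in opposite directions from the evening of day 4 in the 2 day 5 libraries, beside 199 (1.54%) of all 12915 genes. Tdgf1 and Sostdc1 passed the minimum only through the library in which they were highest and had to differ there, and 51 of the 199 likewise passed only through their highest library, so these shares rest in part on the minimum. They are listed for that difference between the places, each as the change around the embryo minus the change away from it on the log2 scale. Bmp7 differed by 3.71, from -1.06 away to 2.65 around, and its fall away from the embryo was 2-fold or less under total counts. Tdgf1 differed by 6.89, from -2.70 to 4.19. Gdf10 went the other way, by -4.73, from 1.04 to -3.69, as did Sostdc1, by -7.58, from 3.69 to -3.88. With 1 library at each place these differences were not tested, and the values of Tdgf1 and Sostdc1 depend on the prior because Tdgf1 was at 0 counts in the away and Sostdc1 in the around library.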

How the results depend on the processing

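The 7 genes higher around the embryo than on the evening of day 4 ranged from 5 to 7 over 9 alternatives, and the 6 higher around than away from 5 to 7. No called change of a Bmp or activin gene changed sign under another scaling or prior, and 29 of 200 changes left their counting interval.

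Of 96 recounts, 77 stayed within 1.5 times the main count, and the others were small. From day 3 to the morning of day 4, the 1 higher gene became 2 with a prior of 0.5, 0 at a mean CPM of 5 and 3 at 1.5-fold. There, the 2 lower genes became 1 with DESeq2 size factors and 1 at 3-fold, and with the counting interval past 2-fold both counts were 0. From the morning to the evening of day 4, 1.5-fold gave 4 higher and a prior of 0.5 gave 1 lower. In the away library, both total-count scalings gave 3 higher in place of 2, Bmp2 being added, 3-fold gave 1 higher and 0 lower, 1.5-fold gave 2 lower, and both total-count scalings and the interval rule gave 0 lower. In the around library against the evening of day 4, total counts without Rn45s and Lars2 and 1.5-fold each gave 1 lower. Scaling and filtering without the around library, chosen after seeing the data, gave 0 higher and 1 lower from day 3 to the morning of day 4, because Bmp4 and Inhba are then under the minimum level.

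Total counts changed the share of higher calls among all genes from 39.5% to 19.6% from day 3 to the morning of day 4, from 50.5% to 64.0% in the away library, and from 47.2% to 31.5% around against away. Without Rn45s and Lars2 it became 29.2% in the first and 32.9% in the last. No paired analysis was possible because each group has 1 library, and no library could be left out of a group. Depth limits Inhba and Inhbb before day 5, where counts were at or near the floor.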

Other observations

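Of the 63 pathway genes, 17 were not called in any of the 5 comparisons, among them the receptors Bmpr1a, Acvr1 and Acvr2a. The matching share of all kept genes is not given here, so whether 17 is many or few cannot be told. Twsg1, an extracellular modulator of Bmp ligands, had 2395, 1707, 1438, 1643 and 894 counts in order of time, ending with the around library. Rgmb, a Bmp co-receptor, had 1038, 1178, 697, 1052 and 653 counts, and Dand5, a secreted antagonist, had 77, 98, 67, 74 and 57. Ski had 1449, 1015, 951, 1305 and 1076 counts, while its relative Skil was called higher around the embryo.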
